A study of Homo sapiens with 24 samples.

Results

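Antisense RNAs are transcripts read from the DNA strand opposite to another gene, and by convention RefSeq names such an RNA after the gene it lies against, followed by AS1. The expression of 349 of these RNAs and of the genes they are named after was followed in 2 established human hepatocellular carcinoma cell lines, PLC/PRF/5 and SNU-449, on 24 Agilent one-colour arrays. The 349 RNAs were chosen by a detection rule: 475 array probes whose accession maps to a symbol ending in AS1, which lie at least 40 rows and 10 columns inside the edges of the array and which the scanner software called well above background on all 3 arrays of at least 1 of the 8 groups. They came from 1059 such probes, of 760 RNAs, in that part of the array, from 1522 on the whole array and from 58201 non-control probes in all. Both lines were starved of serum overnight and then left untreated (control) or treated for 16 h with recombinant human TGFβ1 at 1 ng/mL, with galunisertib (LY2157299, an inhibitor of the TGFβ type I receptor kinase) at 10 µM, or with TGFβ1 and galunisertib together. Each of the 8 groups held 3 arrays from independent cultures of 1 line, so that the p-values describe these cell lines and no other tumour cells. Each group lay at the same position on each of 3 slides, with the untreated and galunisertib arrays in the upper row and those given TGFβ in the lower, so position and treatment cannot be told apart.

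Many antisense RNAs start next to the promoter of the gene on the other strand and are read away from it, so that one stretch of open DNA serves both directions. Others lie across the body of the sense gene and start far from its promoter. Some are known to act on their neighbour, by recruiting chromatin factors, by collision of polymerases or by pairing with its RNA, but for most no function is established. TGFβ signals through receptor kinases to SMAD factors, which activate or repress genes together with partners that differ between cell types.

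By the RefSeq positions of the genes, 109 of the 349 RNAs had a start site within 1000 bases of that of the sense gene, 134 overlapped the body of the sense gene with starts farther apart, 9 did neither, and 97 could not be classified because no window of one of the genes was at hand. Promoter windows of 5 RNAs are shown because the pairs behind them carry the results below. In 2 pairs both genes differed between the lines (FOXD3 and HHIP), and in 1 only the antisense RNA did (SRRM2). In the other 2 both genes rose in SNU-449 when galunisertib was added to TGFβ (MIDEAS and TM4SF1). Each window runs from 250 bases before to 50 bases after the start of the antisense RNA, 5′ to 3′ on its own strand, from RefSeq on GRCh38.p14. Capitals mark the bases that also lie in the window of the sense gene on the other strand. The FOXD3-AS1 window (chr1:63322409-63322708, minus strand) shares 208 of its 300 bases, and the start sites lie 109 bases apart. The HHIP-AS1 window (chr4:144645970-144646269, minus strand) shares 236 bases and the starts lie 137 apart, and for the MIDEAS-AS1 window (chr14:73787110-73787409, plus strand) the figures are 251 and 152. The SRRM2-AS1 window (chr16:2752551-2752850, minus strand) shares 137 bases with starts 38 apart, and the TM4SF1-AS1 window (chr3:149377528-149377827, plus strand) shares 228 with starts 129 apart.
FOXD3-AS1: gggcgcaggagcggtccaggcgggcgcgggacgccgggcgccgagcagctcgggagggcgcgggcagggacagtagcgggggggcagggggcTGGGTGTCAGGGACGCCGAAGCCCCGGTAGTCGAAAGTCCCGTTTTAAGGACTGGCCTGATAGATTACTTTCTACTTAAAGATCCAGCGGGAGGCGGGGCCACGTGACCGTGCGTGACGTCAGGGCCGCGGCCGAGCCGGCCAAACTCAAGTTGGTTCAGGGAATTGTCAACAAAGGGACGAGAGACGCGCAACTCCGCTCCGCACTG
HHIP-AS1: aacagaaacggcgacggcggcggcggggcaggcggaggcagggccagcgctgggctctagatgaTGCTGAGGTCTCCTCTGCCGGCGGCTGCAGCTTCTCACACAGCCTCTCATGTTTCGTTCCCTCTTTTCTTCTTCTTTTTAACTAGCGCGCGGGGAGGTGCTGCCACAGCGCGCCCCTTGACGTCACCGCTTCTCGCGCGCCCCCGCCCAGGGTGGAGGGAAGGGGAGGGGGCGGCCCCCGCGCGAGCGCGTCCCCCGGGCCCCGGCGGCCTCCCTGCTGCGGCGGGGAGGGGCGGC
MIDEAS-AS1: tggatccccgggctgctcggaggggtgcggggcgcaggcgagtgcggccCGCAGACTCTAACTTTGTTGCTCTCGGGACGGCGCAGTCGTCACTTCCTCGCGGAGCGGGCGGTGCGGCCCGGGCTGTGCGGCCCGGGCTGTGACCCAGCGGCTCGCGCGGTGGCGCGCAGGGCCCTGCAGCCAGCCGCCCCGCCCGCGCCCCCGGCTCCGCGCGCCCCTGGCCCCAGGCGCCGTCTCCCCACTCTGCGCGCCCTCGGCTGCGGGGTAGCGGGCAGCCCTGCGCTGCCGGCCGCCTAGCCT
SRRM2-AS1: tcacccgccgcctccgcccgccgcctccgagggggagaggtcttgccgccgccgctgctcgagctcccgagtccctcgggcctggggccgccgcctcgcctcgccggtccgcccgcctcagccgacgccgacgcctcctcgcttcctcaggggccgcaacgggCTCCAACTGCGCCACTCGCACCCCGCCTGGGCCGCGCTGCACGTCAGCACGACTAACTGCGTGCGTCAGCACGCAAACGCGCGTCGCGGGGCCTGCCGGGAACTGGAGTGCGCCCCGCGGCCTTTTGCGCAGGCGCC
TM4SF1-AS1: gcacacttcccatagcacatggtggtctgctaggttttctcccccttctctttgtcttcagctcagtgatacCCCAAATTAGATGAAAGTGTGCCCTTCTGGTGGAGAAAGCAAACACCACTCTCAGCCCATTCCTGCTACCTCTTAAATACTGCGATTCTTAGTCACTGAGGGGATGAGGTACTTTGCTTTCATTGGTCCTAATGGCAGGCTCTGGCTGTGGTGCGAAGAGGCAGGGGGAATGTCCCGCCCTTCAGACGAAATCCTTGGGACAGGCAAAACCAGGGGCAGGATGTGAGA

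A further 3 short motifs were searched on both strands of such windows, which the RefSeq table held for 280 of the 349 RNAs (332 windows). The SMAD box CAGAC stood in 136 of the 332 windows and in 45.3% of all 35116 windows of the table. The AP-1 site TGANTCA stood in 22 windows (6.63%, against 7.71%), and the E-box CACCTG in 58 (17.5%, against 20.6%). Of the 5 windows shown, that of TM4SF1-AS1 held 2 SMAD boxes and that of MIDEAS-AS1 held 1. A match in a window is a description of its letters and not a binding site.

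Values are log2 of the processed signal relative to the 75th percentile of the array, so that 0 is the level of that percentile and -4.13 is the floor set at the weakest signal that could be told from background. A probe's level was compared between groups and never with the level of another probe. The antisense RNAs were dim: their median level lay between -1.70 and -1.14 in the 8 groups, against -0.10 to 0.51 for all probes tested, and their median SD between cultures was 0.12 to 0.23. Of the 475 probes, 356 were detected in both lines, 67 in PLC/PRF/5 only and 52 in SNU-449 only, and 259 were above background on all 24 arrays. The number above background on all 3 arrays differed between treatments, as it did for all tested probes. In PLC/PRF/5 it was 361 in control cells, 409 with TGFβ, 359 with galunisertib and 395 with both, and in SNU-449 it was 355, 390, 339 and 367. For all tested probes the numbers in the same order were 24334, 26132, 24352 and 25235 in PLC/PRF/5. In SNU-449 they were 23713, 24621, 22389 and 23487. The 26 probes that passed in only 1 group had a median of -3.34 in that group, and the 37 that just missed, with at most 2 of 3 arrays of any group above background, had a median of -3.72.

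In the markers that could be read, the lines mostly differed as the study describes them, with SNU-449 mesenchymal-like and PLC/PRF/5 more differentiated. Each list held 5 markers, of which 3, 4 and 3 were read. Hepatocyte markers were higher in PLC/PRF/5 for 3 of 3 measured (AMBP, RBP4 and SERPINA1), epithelial markers for 3 of 4 with the remaining one higher in SNU-449, and mesenchymal markers were higher in SNU-449 for 3 of 3 (SPARC, CDH2 and COL1A1). The response to TGFβ was read here from SKIL, and that to galunisertib alone, in SNU-449 only, from SKIL and PMEPA1. Both genes encode feedback inhibitors that TGFβ induces. TGFβ raised SKIL by 1.63 in PLC/PRF/5 (limma, adjusted p = 1.5e-05), and the difference of 0.93 in SNU-449 missed the threshold (adjusted p = 0.095). With galunisertib added to TGFβ it fell by 2.06 and 1.48 (adjusted p = 1.7e-06 and 0.0094). In SNU-449, the differences with galunisertib alone were -2.62 for SKIL and -3.50 for PMEPA1 (adjusted p = 0.0014 and 8.9e-04). In all that follows, a lower level in bulk RNA can mean less RNA in each cell or fewer cells with that RNA, and these cannot be told apart.

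Without treatment, most antisense RNAs differed between the lines, as most genes did. Of 474 probes tested, 313 (66.0%) differed by limma at an adjusted p below 0.05, against 65.6% of all 29153 probes. The larger side was PLC/PRF/5, in which 192 were higher, while 121 were higher in the other line, against 34.6% and 30.9% of all probes. A fold above 2 with an unadjusted P below 0.001, the limits used by the study, was met by 177 antisense probes, against 33.3% of all probes. The median difference, PLC/PRF/5 minus SNU-449, was 0.29 for the antisense RNAs and 0.13 for all probes. With arrays scaled to their median the split was 126 higher and 150 lower and the median of all probes moved to -0.21, so the balance of directions depends on the scaling.

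**Figure D1:**
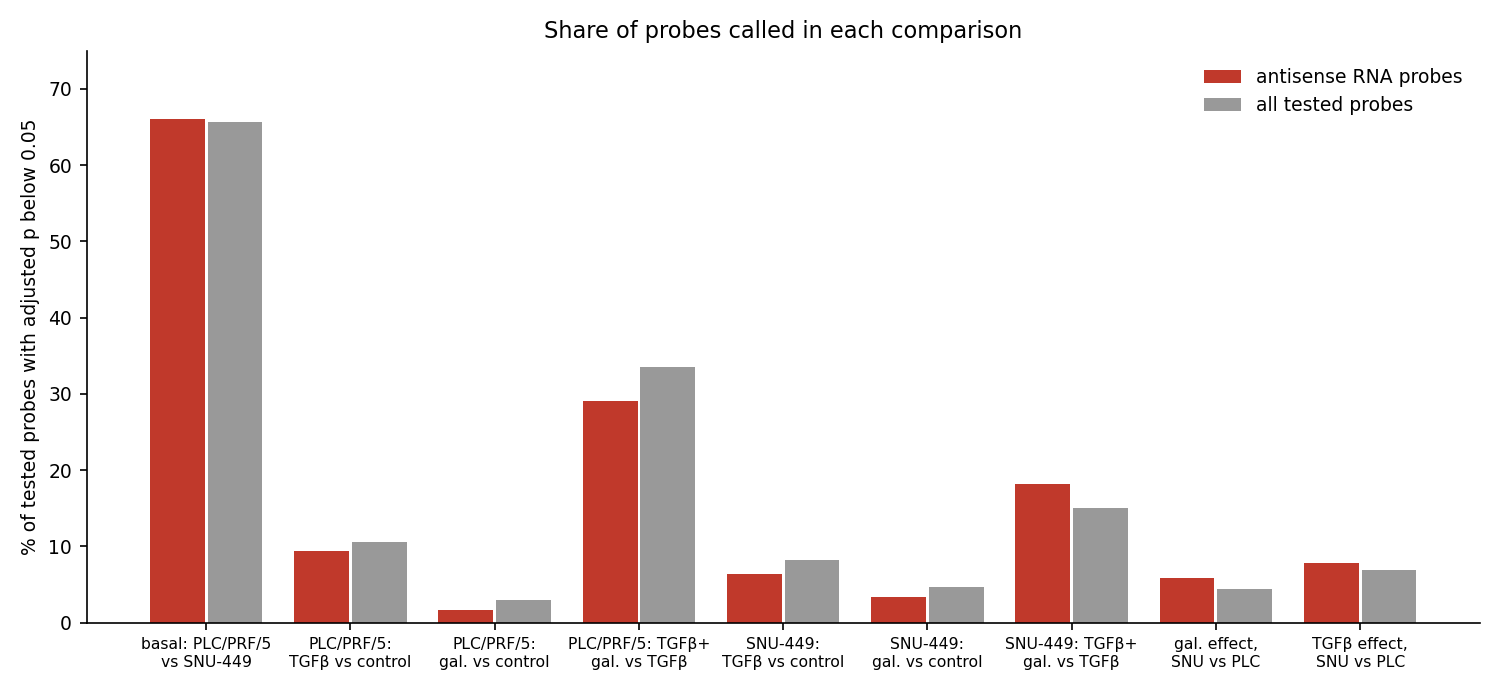
Percentage of probes that passed limma at an adjusted p below 0.05 (vertical axis) in each comparison, as red bars for antisense RNAs and grey bars for all probes tested. Between the lines the shares are 66.0% and 65.6%, and within the lines the red bar is the higher one only for TGFβ with galunisertib against TGFβ in SNU-449 (18.2% and 15.1%).

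The RNAs higher in SNU-449 were led by SERTAD4-AS1. Its level in the 3 control cultures of SNU-449 was 3.91, 3.74 and 3.91, and on none of the 12 PLC/PRF/5 arrays was it above background, a difference of at least 218-fold (limma, -7.99 ± 0.09 SE, adjusted p = 5.2e-23). SERTAD4, which encodes a SERTA domain protein, stood at 2.25, 1.98 and 2.07 in the same cultures and was likewise not above background in PLC/PRF/5, at least 64.7-fold lower there. Both genes of the pair were thus read in 1 line only. The detection rule favours a difference toward the line of detection for the 67 and 52 antisense probes detected in PLC/PRF/5 or SNU-449 only. For such RNAs, here and below, values below the floor were set to it. Their SE and p-value then lack the spread of the undetected line, and the fold is a lower bound.

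TGFB2, a ligand of the TGFβ family, and TGFB2-AS1 were detected in both lines and differed by the same amount. TGFB2-AS1 stood at -3.43, -3.49 and -3.52 in PLC/PRF/5 control cells and at 1.53, 1.83 and 1.92 in SNU-449 (-5.24 ± 0.20 SE, adjusted p = 8.7e-15). TGFB2 stood at -2.64, -2.55 and -2.30 and at 2.64, 2.73 and 2.86 (-5.24 ± 0.14 SE, adjusted p = 3.4e-17). No array of one line reached the range of the other for either gene, and TGFβ treatment changed neither in either line at the threshold, with differences of 0.50 and -0.16 for TGFB2-AS1 and 0.31 and 0.16 for TGFB2.

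Among the other large differences toward SNU-449, 3 more pairs differed as pairs. NR2F1-AS1, named after an orphan nuclear receptor, was at least 30.3-fold higher in SNU-449 and NR2F1 differed by -7.72 ± 0.14 SE. EPHA5-AS1 was at least 58.9-fold higher and EPHA5, an ephrin receptor tyrosine kinase, at least 9.38-fold. FOXC2-AS1 was at least 40.5-fold higher and FOXC2, a forkhead factor of mesenchymal development, at least 5.94-fold. For all 3 antisense RNAs no PLC/PRF/5 array was above background. VLDLR-AS1 differed by -5.03 ± 0.20 SE and VLDLR, a lipoprotein receptor, by -1.73 ± 0.10 SE.

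AQP5-AS1 did not go with its sense gene. It stood at 2.49, 2.71 and 2.60 in SNU-449 and was not above background in PLC/PRF/5 (at least 91.3-fold, adjusted p = 2.5e-22), while the water channel AQP5 stood at -1.25, -1.47 and -1.02 in SNU-449 and at -1.04, -1.13 and -1.51 in PLC/PRF/5. The ranges of AQP5 overlapped, with a difference of 0.02 ± 0.28 SE (adjusted p = 0.96). PRR34-AS1 was at least 98.8-fold higher in SNU-449 and had no sense probe in the part of the array used.

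The RNAs higher in PLC/PRF/5 included those of a forkhead factor and of a membrane protein, both with their sense genes. FOXD3-AS1 stood at 0.11, 0.16 and 0.14 against -3.93 (not above background), -3.69 and -3.65, and FOXD3, a forkhead factor of the neural crest, at 0.37, 0.41 and 0.24 against -3.99 on the only control array of SNU-449 above background, differences of 3.89 ± 0.12 and 4.42 ± 0.08 SE. UPK1A-AS1 was at least 19.5-fold higher and UPK1A, a membrane protein of urothelium, at least 35.8-fold. Both pairs were separated between the lines without overlap.

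SRRM2-AS1 differed without its sense gene, although their start sites lie side by side. It stood at -0.02, -0.08 and -0.42 in PLC/PRF/5 and was above background in 1 of 3 control cultures of SNU-449, at -3.33 (3.69 ± 0.21 SE, adjusted p = 7.0e-12). SRRM2, a component of the splicing machinery, stood at 5.19, 5.46 and 5.58 against 5.59, 5.50 and 5.62 (-0.16 ± 0.10 SE, adjusted p = 0.14). MEF2C-AS1 (5.38), LAMTOR5-AS1 (3.85) and PRKG2-AS1 (3.47) were also among the largest differences toward PLC/PRF/5, as was 1 probe of NR2F2-AS1 (3.88). The other 2 probes of NR2F2-AS1 were lower in PLC/PRF/5, by -0.64 and -0.41, so the probes of that RNA disagree. Between the lines, of 82 RNAs with several probes of which at least 1 passed, 68 had all probes on the same side. With TGFβ it was 10 of 15 in PLC/PRF/5 and 9 of 11 in SNU-449, and with galunisertib alone 3 of 3 and 6 of 7. With galunisertib added to TGFβ it was 27 of 40 and 22 of 26. For the differences of effects between the lines it was 8 of 11 for TGFβ and 7 of 9 for galunisertib.

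**Figure D2:**
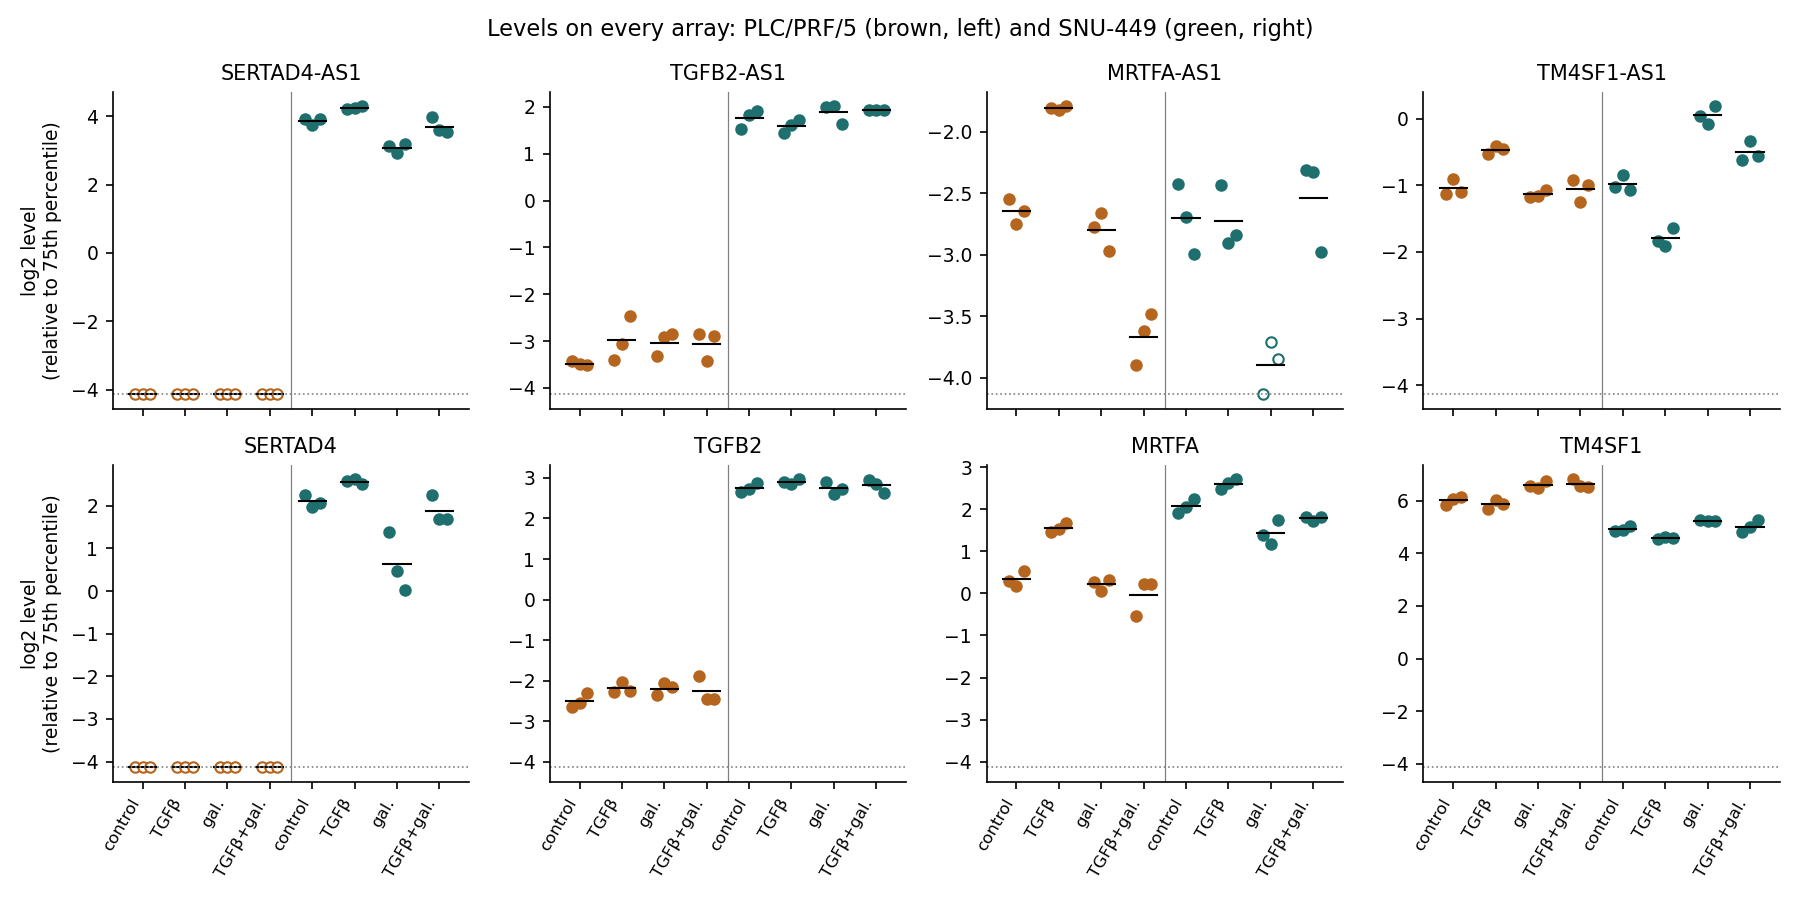
Log2 level on each of the 24 arrays (vertical axes) of 4 antisense RNAs (top) and their sense genes (bottom), by treatment, with PLC/PRF/5 in brown on the left and SNU-449 in green on the right; each point is 1 culture, bars are group means, open points were not well above background and the dotted line is the floor. SERTAD4-AS1 and SERTAD4 are read in SNU-449 only, and TGFB2-AS1, at -3.52 to -3.43 in control cells of PLC/PRF/5, lies at 1.53 to 1.92 in those of SNU-449.

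Taken pair by pair, antisense RNAs went with their sense genes more often than against them, but 40 pairs differed in opposite directions. In 248 pairs with both genes tested, 161 antisense RNAs and 188 sense genes passed, and in 126 pairs both did: 86 in the same direction (37 toward PLC/PRF/5 and 49 toward SNU-449) and 40 in opposite ones. Among the 119 pairs with both probes above background on all arrays, both passed in 61, of which 32 went in the same direction and 29 in opposite ones, so the excess of the same direction depends on that filter. Over all 248 pairs the signs were the same in 149, and the 2 differences correlated at a Spearman rho of 0.38 across pairs, which share the same arrays and are not independent. Among 82 pairs with start sites within 1000 bases, both genes passed in 47, 36 of them in the same direction (rho 0.49). Among 97 overlapping pairs with starts farther apart both passed in 48, 29 in the same direction (rho 0.30), and the difference between these kinds of pair was not tested.

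**Figure D3:**
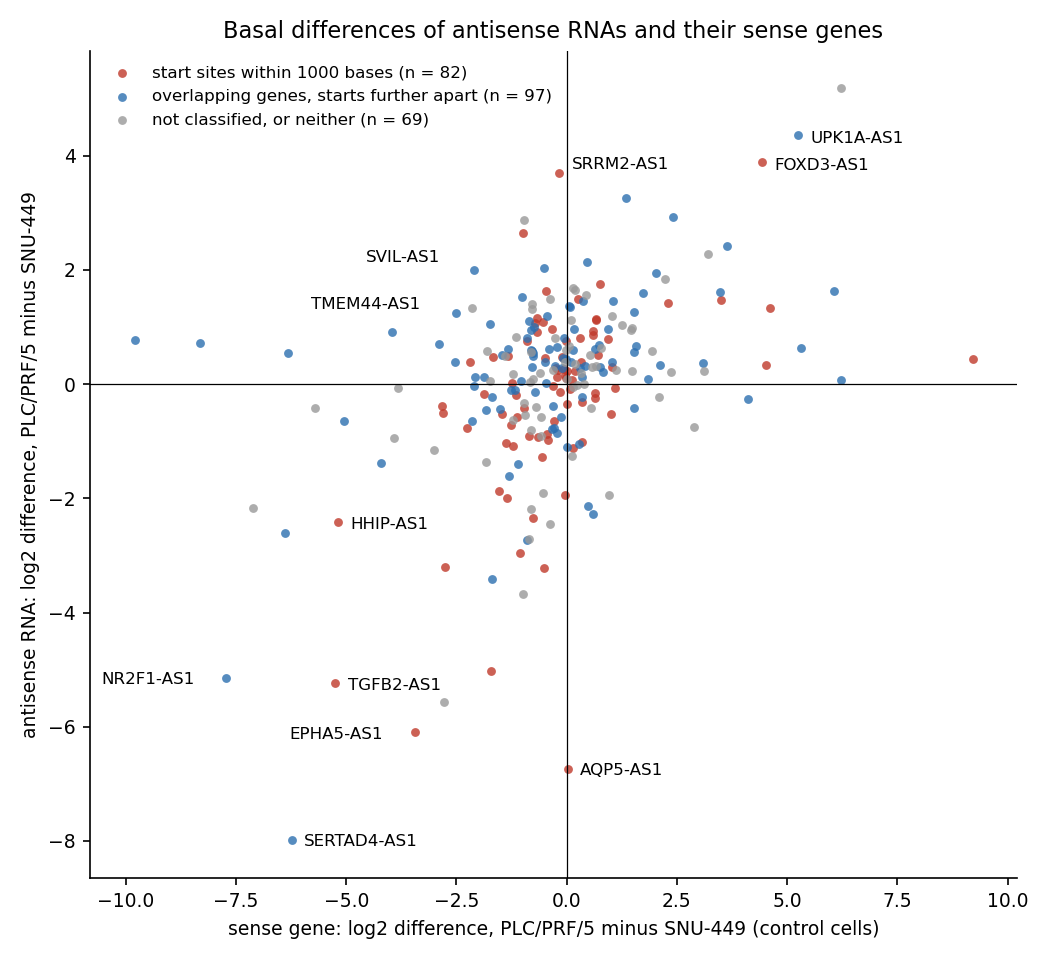
Difference between control cells of the lines (log2, PLC/PRF/5 minus SNU-449) for each antisense RNA (vertical axis) against its sense gene (horizontal axis), 1 point per pair, coloured by the arrangement of the genes. SERTAD4, NR2F1 and TGFB2 lie in the lower left, UPK1A and FOXD3 in the upper right, and AQP5-AS1 and SRRM2-AS1 on the line where the sense gene did not differ.

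Ranked by the smaller of the differences of the antisense RNA and its gene, the first 6 opposite pairs all had the antisense RNA higher in PLC/PRF/5 and the sense gene higher in SNU-449. Not all of the 40 ran this way: TBX2-AS1, noted after the values were seen, differed by -1.94 and TBX2 by 0.95. SVIL-AS1 stood at 1.35, 1.75 and 2.02 in PLC/PRF/5 and at 0.60, 0.49 and -1.97 in SNU-449, while SVIL, an actin-binding membrane protein, stood at 0.48, 0.76 and 0.94 against 2.85, 2.96 and 2.69. The differences were 2.00 ± 0.42 and -2.11 ± 0.11 SE, and without replicate 3, which holds the value of -1.97, that of SVIL-AS1 was 1.01 and still passed. TMEM44-AS1 differed by 1.24 ± 0.13 and TMEM44 by -2.50 ± 0.20 SE. TRAF3IP2-AS1 differed by 1.33 ± 0.26 and TRAF3IP2, an adaptor of interleukin-17 receptors, by -2.15 ± 0.14 SE. PXN-AS1 differed by 1.06 ± 0.13 and PXN, the focal adhesion adaptor paxillin, by -1.75 ± 0.11 SE. PHC2-AS1 (1.53) with PHC2 (-1.01) and STARD4-AS1 (at least 5.96-fold) with STARD4, a sterol carrier whose control means were 0.41 in PLC/PRF/5 and 1.41 in SNU-449, made up the 6.

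The ratio of antisense to sense signal on the same array was then compared between the lines over all 24 arrays. An exact permutation test, two-sided, exchanged line labels within treatments (160000 regroupings, smallest possible p 1.25e-05). It treats the 12 arrays of a line as independent. The study describes 3 independent culture experiments, and arrays with the same replicate number share a slide, so these p-values may be too small. Of 169 pairs tested, the ratio differed in 133 at a Benjamini-Hochberg adjusted p below 0.05, and it was higher on the PLC/PRF/5 side in 83 and on the SNU-449 side in 50. In 62 of these pairs the differences of the antisense RNA and of its gene had opposite signs and in 71 the same sign, whether or not each passed on its own. The ratio kept its sign in each of the 4 treatments in 118. The median size over the 169 pairs was 0.77. The ratio was not tested for other pairs of genes, and 65.6% of all probes differed between the lines. The count of 133 can therefore not be read as particular to antisense RNAs and their genes. The ratio differed by 3.56 for SVIL, 3.56 for TMEM44, 3.19 for TRAF3IP2 and 2.49 for PXN (exact permutation test, adjusted p = 3.2e-05 for each, from the smallest p the test allows). For TGFB2 it differed by 0.16 (exact permutation p = 0.16, adjusted p = 0.19). The largest ratio difference, noted after the values were seen, was 5.88 for GNG12, a G protein subunit, of which the antisense RNA differed by -0.06 and the gene by -5.94 over the 4 treatments.

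TGFβ changed few antisense RNAs in PLC/PRF/5. Of 423 probes tested, 40 (9.46%) passed, 31 up and 9 down, against 10.6% of all probes (5.10% up and 5.47% down). The median was 0.00 for the antisense RNAs and -0.04 for all probes. Leaving out any replicate left 6 to 9 probes, and 1 probe of 423 (0.236%, against 1.06% of all probes) met the limits of the study.

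MRTFA-AS1 and MRTFA, a coactivator of serum response factor that is released by actin polymerisation, rose together. In PLC/PRF/5, MRTFA-AS1 stood at -2.54, -2.75 and -2.65 in control cells and at -1.81, -1.82 and -1.80 with TGFβ (0.84 ± 0.12 SE, adjusted p = 0.0016). MRTFA stood at 0.29, 0.18 and 0.52 and at 1.46, 1.54 and 1.67 (1.22 ± 0.19 SE, adjusted p = 0.0027), with no overlap for either gene. With TGFβ and galunisertib together MRTFA-AS1 stood at -3.90, -3.62 and -3.48 and MRTFA at -0.54, 0.22 and 0.21, lower than with TGFβ by -1.86 ± 0.12 and -1.59 ± 0.19 SE (adjusted p = 4.0e-06 and 1.8e-04). With normexp background correction the rise of MRTFA-AS1 was 0.28 and did not pass.

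Of 212 pairs tested in PLC/PRF/5, both genes passed with TGFβ in 2, that of MRTFA and that of GAS5. GAS5, a noncoding RNA that hosts small nucleolar RNAs, fell by 0.36 on the log2 scale while GAS5-AS1 rose by 0.64 (adjusted p = 0.021 and 0.030), and under array median scaling neither passed. With a replicate left out both genes passed in 0 or 1 pairs. GATA3-AS1, named after a zinc finger factor, stood at -1.31, -1.11 and -1.07 in control cells and at -0.24, -0.25 and -0.18 with TGFβ (0.94 ± 0.12 SE, adjusted p = 0.0010), and galunisertib with TGFβ returned it to -1.48, -1.64 and -1.32. DSCAM-AS1 was the largest fall: it stood at -2.49, -2.58 and -2.45 in control cells, at -3.69, -3.59 and below detection with TGFβ (-1.30 ± 0.15 SE, adjusted p = 5.2e-04) and at -2.65, -2.85 and -2.81 with both agents, while DSCAM itself was on no array above background. RNF157-AS1 rose by 1.45 ± 0.37 SE (adjusted p = 0.031), NDST1-AS1 by 0.84 and NINJ2-AS1 by 0.87, and RNF157-AS1 passed neither when any of the 3 replicates was left out nor with the replicate number as a block.

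Galunisertib alone changed 7 of 423 antisense probes in PLC/PRF/5 (1.65%, against 2.92% of all probes), 1 up and 6 down, against 1.86% and 1.06% of all probes, and at the limits of the study 0 against 0.267%. In 0 of 212 pairs did both genes pass by limma, under the main or any other setting, and in 3 both had an unadjusted p below 0.05. UPK1A-AS1 stood at 0.30, 0.25 and 0.14 in control cells and at -0.64, -0.64 and -0.44 with galunisertib, without overlap (-0.80 ± 0.12 SE, adjusted p = 0.0090). The fall of UPK1A-AS1 did not pass under array median scaling or without scaling, and no antisense probe passed in this comparison when any replicate was left out.

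Adding galunisertib to TGFβ gave the most calls within a line. In PLC/PRF/5, 123 of 423 antisense probes passed (29.1%, against 33.5% of all probes), 46 up and 77 down, against 20.2% and 13.3% of all probes. The limits of the study were met by 10 (2.36%), against 2.82% of all probes. The median was -0.12 against 0.01. The split depends on the scaling: it was 40 up and 19 down with array median scaling, which moved the median of all probes to 0.19, 3 up and 16 down without scaling, and 25 up and 125 down with the percentile taken over detected probes. This comparison shares its TGFβ arrays with that of TGFβ against control.

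Of 212 pairs, 55 antisense RNAs and 89 sense genes passed, and in 23 both did, 16 in the same direction (6 up and 10 down) and 7 in opposite ones. Without replicate 1, 2 or 3 both genes passed in 7, 6 and 9 pairs, of which 2, 3 and 3 were opposite. NINJ2-AS1 with NINJ2, an adhesion molecule, fell by 1.28 and 0.89, and NDST1-AS1 with NDST1, an enzyme of heparan sulfate synthesis, by 1.35 (at least 2.55-fold) and 0.56. SEMA3B-AS1 with SEMA3B, a secreted semaphorin, fell by 0.76 and 0.94. DLEU1-AS1 with DLEU1 rose by 0.85 and 0.85, and GABPB1-AS1 with GABPB1, a subunit of an ETS factor, by 0.61 and 0.87. The pair of MRTFA, described above, was the largest.

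In the opposite pairs the antisense RNA mostly fell while its gene rose. TM4SF1-AS1 fell by 0.58 while TM4SF1, a tetraspanin-like membrane protein, rose by 0.76, FAM13A-AS1 fell by 0.47 while FAM13A rose by 1.12, and GAS5-AS1 fell by 0.82 while GAS5 rose by 0.63. TMCO1 and ANXA2R went the same way as these, while TMEM44-AS1 rose by 0.23 and TMEM44 fell by 0.60. With array median scaling both genes passed in 8 pairs and none were opposite, and without scaling in 2 and none, with the percentile over detected probes in 30 with 5 opposite, and with normexp in 11 with 2 opposite.

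**Figure D4:**
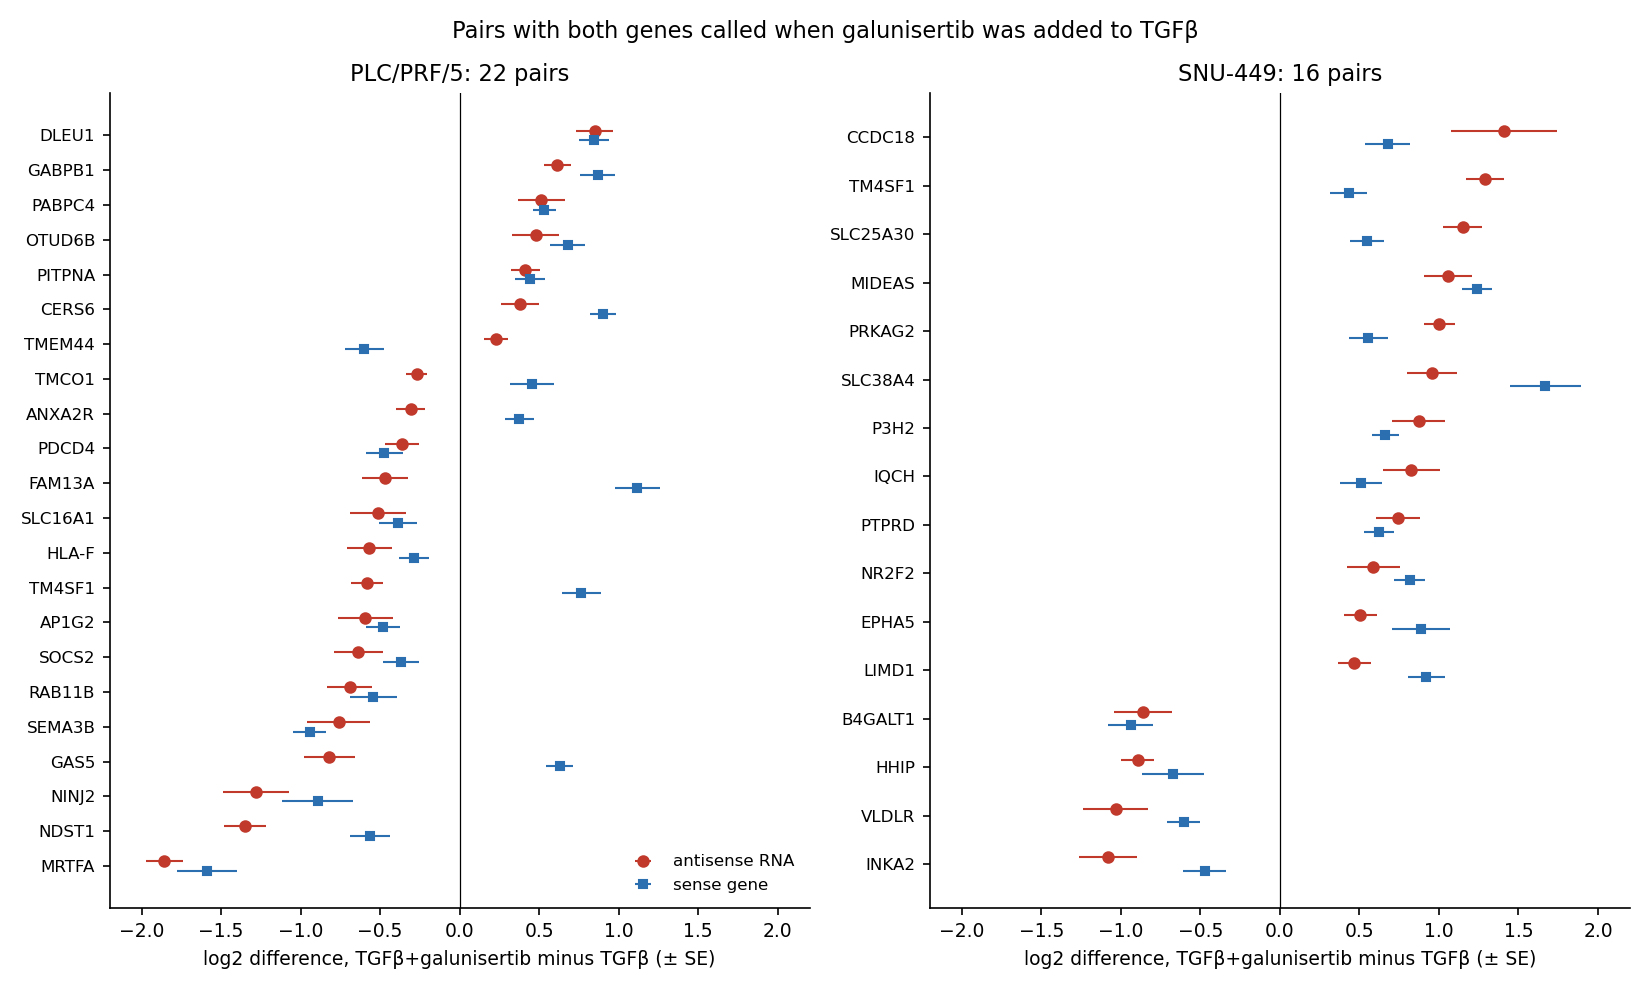
Log2 difference between TGFβ with galunisertib and TGFβ alone (horizontal axes) for 22 of the 23 pairs in which both genes passed in PLC/PRF/5 (left) and 16 of the 17 in SNU-449 (right), with antisense RNAs as red circles, sense genes as blue squares and bars of 1 standard error. In SNU-449 both symbols of every pair drawn lie on the same side of 0, and in PLC/PRF/5 those of 16 of the 22 pairs drawn do.

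In SNU-449, TGFβ changed 26 of 407 antisense probes tested (6.39%, against 8.24% of all probes), 6 up and 20 down, against 4.47% and 3.77% of all probes. The limits of the study were met by 4 (0.983%), against 2.14%. The median was -0.05 against 0.00. The split was 5 up and 5 down with array median scaling and 8 up and 6 down without scaling, and leaving out any replicate left 6 to 9 probes.

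Of 205 pairs, 19 antisense RNAs and 25 sense genes passed, and in 7 both did, all in the same direction. Over all 205 pairs the signs were the same in 116 (Spearman rho 0.28). HHIP, an inhibitor that binds Hedgehog ligands, rose with HHIP-AS1: the antisense RNA stood at -1.81, -1.65 and -1.67 in control cells and at -1.04, -1.03 and -1.05 with TGFβ (0.67 ± 0.10 SE, adjusted p = 0.0029), and HHIP at 1.42, 0.66 and 1.08 and at 1.78, 1.79 and 1.90 (0.77 ± 0.19 SE, adjusted p = 0.036). Neither was above background in PLC/PRF/5, and their shared promoter region is shown above. B4GALT1-AS1 with B4GALT1, a galactosyltransferase, was the other pair that rose (0.79 and 0.58). With the replicate number as a block, HHIP and B4GALT1-AS1 did not pass.

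The 5 pairs that fell were those of PRKAG2, SLC38A4, P3H2, NR2F2 and LIMD1. PRKAG2-AS1 stood at 0.50, 0.44 and 0.52 in control cells and at -0.44, -0.29 and -0.45 with TGFβ (-0.88 ± 0.10 SE, adjusted p = 3.8e-04), and PRKAG2, a subunit of AMP-activated kinase, fell by 0.60 (adjusted p = 0.015). SLC38A4-AS1 with SLC38A4, an amino acid transporter of liver, fell by 0.79 and 1.00, P3H2-AS1 with P3H2, a collagen prolyl hydroxylase, by 0.90 and 0.49, NR2F2-AS1 with NR2F2, an orphan nuclear receptor, by 0.69 and 0.68, and LIMD1-AS1 with LIMD1 by 0.50 and 0.52. With array median scaling both genes passed in 1 pair, without scaling in 3, and with a replicate left out in 0 to 2, and NR2F2-AS1 did not pass with the replicate number as a block.

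AQP5-AS1 and CFLAR-AS1 fell although their genes did not pass, and they are not ranked because the fall of CFLAR-AS1 is a lower bound. The mean of AQP5-AS1 was 1.41 ± 0.12 (SD, n = 3) with TGFβ, lower than in control cells without overlap (-1.19 ± 0.12 SE, limma adjusted p = 2.1e-04). With both agents it returned to 2.66, 2.88 and 2.78. MSRB3-AS1 was near the floor in control cells (-3.68, -3.92 and not above background) and stood at -2.78, -2.78 and -2.58 with TGFβ (1.20 ± 0.12 SE, adjusted p = 2.3e-04), while MSRB3, a methionine sulfoxide reductase, differed by 0.14 ± 0.11 SE. CFLAR-AS1 fell at least 2.25-fold, from -3.05, -2.92 and -2.93 to below detection on all 3 arrays, and CFLAR, an inhibitor of death receptor signalling, differed by -0.13 ± 0.14 SE. With normexp the rise of MSRB3-AS1 was 0.27 and did not pass.

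Galunisertib alone changed 14 of 407 antisense probes in SNU-449 (3.44%, against 4.63% of all probes), 10 up and 4 down, against 2.88% and 1.76% of all probes. The limits of the study were met by 3 (0.737%), against 1.14%. Both genes of 2 pairs fell. SERTAD4-AS1 fell from 3.91, 3.74 and 3.91 to 3.12, 2.92 and 3.18 (-0.78 ± 0.13 SE, adjusted p = 0.0083) and SERTAD4 from 2.25, 1.98 and 2.07 to 1.38, 0.46 and 0.04 (-1.48 ± 0.29 SE, adjusted p = 0.019). MRTFA-AS1 stood at -2.43, -2.69 and -2.99 in control cells and was not above background with galunisertib (at least 2.27-fold lower, adjusted p = 0.016), and MRTFA fell by 0.63 (adjusted p = 0.038). TM4SF1-AS1 rose from -1.03, -0.84 and -1.07 to 0.05, -0.09 and 0.18 (1.03 ± 0.12 SE, adjusted p = 0.0014) with TM4SF1 at 0.33 ± 0.12 SE (adjusted p = 0.14). Under array median scaling the falls of SERTAD4-AS1, SERTAD4 and MRTFA did not pass, and with a replicate left out 0 to 2 antisense probes did.

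Adding galunisertib to TGFβ in SNU-449 changed 74 of 407 antisense probes (18.2%, against 15.1% of all probes), 55 up and 19 down, against 8.73% and 6.41% of all probes. The limits of the study were met by 13 (3.19%), against 3.61%. The median was 0.13 against 0.01. With array median scaling the split was 11 up and 15 down and without scaling 20 up and 27 down, so the excess of rises depends on the scaling.

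Of 205 pairs, 43 antisense RNAs and 43 sense genes passed, and in 17 both did, all in the same direction, 13 up and 4 down. Over all 205 pairs the signs were the same in 109 (Spearman rho 0.24). The TGFβ arrays are shared with the comparison of TGFβ and control. MIDEAS-AS1 stood at -2.55, -2.99 and -2.57 with TGFβ and at -1.59, -1.71 and -1.64 with both agents (1.06 ± 0.15 SE, adjusted p = 0.0011), and MIDEAS, a subunit of a histone deacetylase complex, at 1.43, 1.48 and 1.48 and at 2.67, 2.61 and 2.84 (1.24 ± 0.10 SE, adjusted p = 2.6e-05). Neither gene overlapped between these groups. SLC38A4-AS1 with SLC38A4 rose by 0.95 and 1.67, PRKAG2-AS1 with PRKAG2 by 1.00 and 0.56, SLC25A30-AS1 with SLC25A30, a mitochondrial carrier, by 1.15 and 0.55, and TM4SF1-AS1 with TM4SF1 by 1.29 and 0.43. HHIP-AS1 with HHIP fell by 0.89 and 0.67, and VLDLR-AS1 with VLDLR by 1.03 and 0.61, and HHIP did not pass with the replicate number as a block. With normexp 1 of 17 pairs was opposite, with array median scaling both genes passed in 6 pairs and without scaling in 8, with none opposite. Without replicate 1 both genes passed in 7 pairs, of which 1 was opposite, and without replicate 2 or 3 in 2 pairs each.

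The lines answered differently in several RNAs. Of 270 RNAs tested in both lines by their brightest probe, adding galunisertib to TGFβ changed 74 in PLC/PRF/5 and 46 in SNU-449, and 16 were changed in both (21.6% of the former and 34.8% of the latter). Of these, 7 rose in both lines (DDX11-AS1, FOXP4-AS1, GABPB1-AS1, PABPC4-AS1, PXN-AS1, RASSF8-AS1 and TMEM44-AS1) and 9 fell in PLC/PRF/5 and rose in SNU-449. With the replicate number as a block, PXN-AS1 did not pass in PLC/PRF/5 nor TMEM44-AS1 in SNU-449. Those that moved in opposite directions included ANXA2R-AS1, CCDC18-AS1, PDCD4-AS1, SLC25A30-AS1, TBX2-AS1, TFAP2A-AS1, TM4SF1-AS1 and TMEM132D-AS1. Of all 23375 probes tested in both lines, 1391 were changed in both, a share close to that of 16 in 270 here. Of those 1391, 34.4% moved in opposite directions, against 56.2% of the 16. With array median scaling 3 RNAs were changed in both lines, all in opposite directions, without scaling 2 of 3 were, and with a replicate left out 2 of 3, 3 of 4 and 6 of 8. With 1 probe per gene name taken for all genes, 21 were changed in both lines, 12 in the same direction and 9 (42.9%) in opposite ones, so the majority depends on that choice.

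TM4SF1-AS1 passed in both lines with TGFβ and with galunisertib added to TGFβ, each time in opposite directions. These comparisons share their TGFβ arrays, so neither is independent evidence for the other. With TGFβ it went from -1.13, -0.90 and -1.10 to -0.53, -0.42 and -0.46 in PLC/PRF/5 (0.58 ± 0.10 SE, adjusted p = 0.0053) and from -1.03, -0.84 and -1.07 to -1.83, -1.91 and -1.65 in SNU-449 (-0.82 ± 0.12 SE, adjusted p = 0.0023). The difference between these effects, SNU-449 minus PLC/PRF/5, was -1.39 ± 0.15 SE (limma interaction over 24 arrays, adjusted p = 6.0e-06). With both agents it stood at a mean of -1.05 ± 0.17 (SD, n = 3) in PLC/PRF/5 and at -0.62, -0.34 and -0.57 in SNU-449, near the control cultures of the first line and above all control cultures of the second. TM4SF1, in contrast, differed with TGFβ by -0.15 and -0.34, neither of which passed, and the difference of -0.19 ± 0.17 SE between the lines did not pass (adjusted p = 0.61). Under array median scaling the separate TGFβ effects of TM4SF1-AS1 did not pass, at 0.60 and -0.72.

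SLC25A30-AS1 did the same. With TGFβ it went from -1.82, -1.75 and -1.45 to -0.99, -1.30 and -1.11 in PLC/PRF/5 (0.54 ± 0.13 SE, adjusted p = 0.024) and from -3.14, -3.14 and -2.96 to -3.66, -3.89 and -3.77 in SNU-449 (-0.69 ± 0.12 SE, adjusted p = 0.0056), and the difference between the lines was -1.23 ± 0.18 SE (adjusted p = 1.2e-04). With both agents it stood at -2.44, -2.18 and -2.16 and at -2.67, -2.41 and -2.80. The separate TGFβ effects did not pass with normexp or under array median scaling, whereas those of the added galunisertib, -1.12 and 1.15, did. CFLAR-AS1 was the only RNA of the 270 that TGFβ changed in both lines in the same direction, by -0.50 in PLC/PRF/5 and by at least 2.25-fold in SNU-449, where it fell below detection, and it did so under neither array median scaling nor absence of scaling in PLC/PRF/5.

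**Figure D5:**
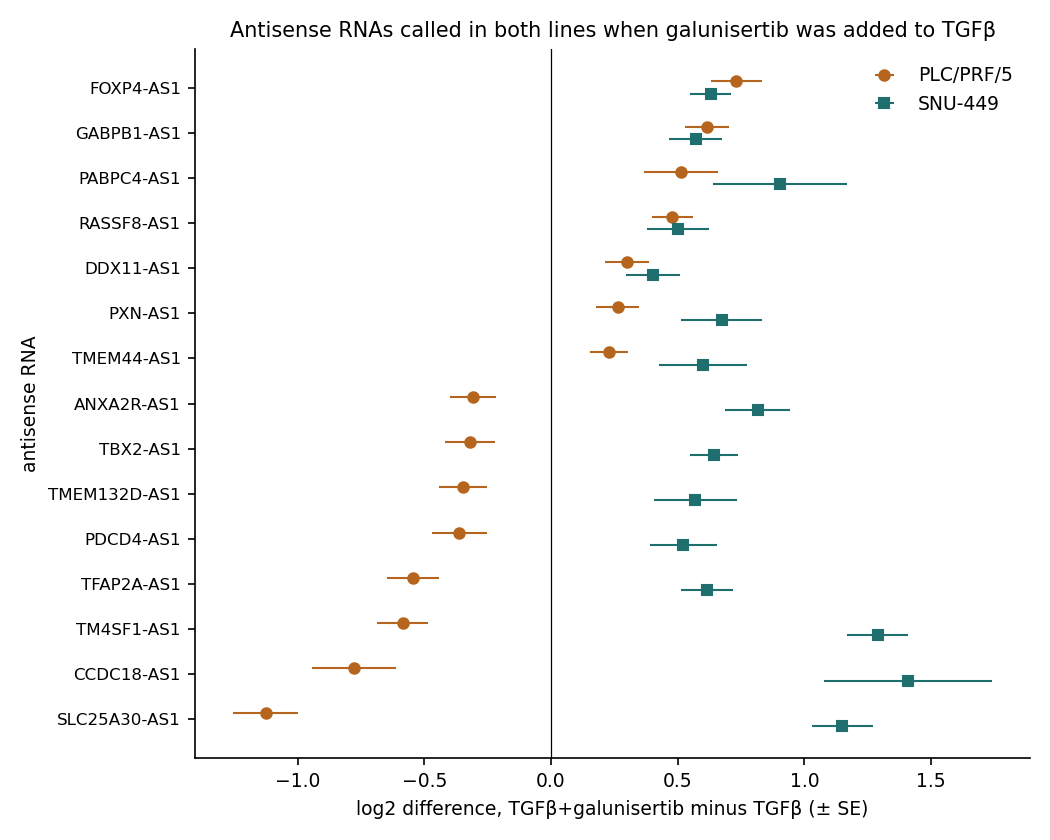
Log2 difference between TGFβ with galunisertib and TGFβ alone (horizontal axis) for 15 of the 16 antisense RNAs that passed in both lines, with PLC/PRF/5 as brown circles, SNU-449 as green squares and bars of 1 standard error. The upper 7 lie to the right of 0 in both lines, and the lower 8 lie to the left in PLC/PRF/5 and to the right in SNU-449.

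Tested directly, the TGFβ effect differed between the lines for 37 of 474 antisense probes (7.81%, against 6.95% of all probes) and the galunisertib effect for 28 (5.91%, against 4.47%). The TGFβ effect was lower in SNU-449 for 29 and higher for 8 (3.69% and 3.25% of all probes), and the galunisertib effect was higher in SNU-449 for 24 and lower for 4 (2.46% and 2.01% of all probes). The limits of the study were met by 8 for each (1.69%), against 2.04% and 1.47% of all probes. In 2 pairs the TGFβ effect differed for both genes (HHIP and SLC38A4) and in 4 the galunisertib effect did (SERTAD4, SLC25A30 and TMEM26 among them), always with the same sign. With array median scaling 9 and 4 probes passed in place of 37 and 28, at 3 higher and 6 lower for TGFβ and 3 higher and 1 lower for galunisertib, without scaling 1 was higher and 2 were lower for galunisertib, and in the authors' normalized values 0 were higher and 20 lower for TGFβ.

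Antisense RNAs of genes of TGFβ signalling, matrix and hepatocyte regulation showed no common direction. Of a list of 26 such RNAs 14 were among the detected ones, and between the lines 7 were higher in PLC/PRF/5 and 4 in SNU-449, beside 34.6% and 30.9% of all probes. Within the lines 12 were tested in each, and the shares of all probes called were 10.6% and 8.24% for TGFβ, 2.92% and 4.63% for galunisertib and 33.5% and 15.1% for galunisertib added to TGFβ. TGFβ changed 1 in PLC/PRF/5 (GAS6-AS1, 0.34) and 1 in SNU-449 (FOXP4-AS1, -0.69), and galunisertib alone changed 1 in PLC/PRF/5 and none in SNU-449, where 2 had an unadjusted p below 0.05. Adding galunisertib to TGFβ raised 2 and lowered 3 in PLC/PRF/5, and raised 2 and lowered 1 in SNU-449. ZEB1-AS1, named after a repressor of epithelial genes, differed with TGFβ by 0.29 ± 0.15 and 0.52 ± 0.20 SE and did not pass in either line (adjusted p = 0.26 and 0.16).

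Of 9 broadly expressed antisense RNAs, 8 were among the detected ones, 2 were higher in PLC/PRF/5 and 4 in SNU-449 (34.6% and 30.9% of all probes), and TGFβ changed none in either line by limma (10.6% and 8.24% of all probes), although 2 in PLC/PRF/5 and 0 in SNU-449 had an unadjusted p below 0.05. OIP5-AS1, also known as Cyrano, differed between the lines by 0.00 ± 0.08 SE and rose with galunisertib in SNU-449 by 0.38 (adjusted p = 0.035) and with galunisertib added to TGFβ in PLC/PRF/5 by 0.53 (adjusted p = 0.0016). TTN-AS1 was higher in PLC/PRF/5 by 2.95 ± 0.22 SE.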

How the data were processed

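Gene expression was measured on 24 Agilent one-colour arrays, 3 per group of line and treatment, as labelled. For each array the authors deposited Feature Extraction 10.7.3.1 output, per the submitters' processing notes, of which the processed signal is a background-subtracted intensity on a linear scale, with no scaling across arrays. A deposited table of log2 values, also made by the authors, held values centred on each probe's median, which followed those computed here once centred (correlation 0.999 and slope close to 1 over 19258 probes), had column medians near 0 (median -0.0028) and served as an alternative, with its normalization read from the values. Control spots and outlier spots were left out (111 to 216 spots per array) and 0 spots were saturated. Signals were divided by the 75th percentile of the array (145 to 262), floored at 5.70% of it, which is the weakest signal called well above background on an array (median of 24), and taken to log2. Between 41.6% and 49.6% of probes were well above background on an array, and precision rests on 3 arrays per group.

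Gene names came from the accession in the files, looked up in the RefSeq table of GCF_000001405.40, which named 31104 of 58201 probes. No probe sequence was used, so it was not tested whether a probe also binds the other strand. The sense gene was the symbol before AS1, with a probe in the same part of the array for 280 of 349 RNAs. Each gene was represented by its brightest probe, while probes were counted singly. Probes well above background on all 3 arrays of a group entered limma 3.58.1 in R 4.3.3, over 12 arrays within a line and 24 between the lines, with Benjamini-Hochberg adjustment over all probes tested. Of the 475 antisense probes, 1 had an outlier spot, which left 474 in the fit over 24 arrays. Where no array of a group was above background, a fold is a lower bound, the brighter group's mean against the higher of the dim probe's own value and the weakest detectable signal of each array.

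The text names, with their sense genes, the 8 largest differences each way between the lines, up to 8 per treatment comparison, the 6 largest pairs each way with both genes called, 2 lists of antisense RNAs, and SKIL and PMEPA1 (SMAD7, also in the rule, has its probe near the edge of the array and was not used here). 1 RNA is not reported here by name or drawn in the plots of single RNAs, but is part of the counts. The members and lists were chosen with earlier results of these data known. The replicate number is also the slide. Deviations of samples with the same number correlated above 0.1 in every pair for TGFβ in both lines (0.20 to 0.27 in PLC/PRF/5 and 0.17 to 0.21 in SNU-449) and, in SNU-449, for galunisertib with TGFβ against TGFβ (0.10 to 0.26), but not in the other comparisons. The fits had no block, and a block was an alternative. Others were scaling, background correction, floor, filters, the authors' values, the methods' t-test and leaving out each replicate. Background correction by normexp used the median spot signal. Tested on simulated data, the fits recovered 59% to 84% of log2 changes of 1 and 88% to 99% of log2 changes of 2. Unchanged probes made up 1.19% to 6.91% of the calls there. Recovery was not tested separately for the antisense probes, which were dimmer than all probes tested, so these shares need not hold for them.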

Additional observations from a re-analysis of the deposited data

Results flagged for a closer look

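The effect of a treatment differed between the lines, by an interaction term in limma over all 24 arrays, for 30 effects of 25 named antisense RNAs. Values are SNU-449 minus PLC/PRF/5 on the log2 scale. For an RNA that was above background in 1 line only, the difference is the effect in that line, with its sign turned where the line is PLC/PRF/5, so that a positive value is a fall there: AQP5-AS1, EPHA5-AS1, HHIP-AS1, MSRB3-AS1, PTPRD-AS1 and SERTAD4-AS1 were never above background in PLC/PRF/5, and DSCAM-AS1, GATA3-AS1 and UPK1A-AS1 never in SNU-449.

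The galunisertib effect differed for 11. It was higher in SNU-449 for TM4SF1-AS1 (1.12), SNAI3-AS1 (1.04), TMEM26-AS1 (0.84), TMPO-AS1 (0.84), UPK1A-AS1 (0.80), SLC25A30-AS1 (0.77), PTPRD-AS1 (0.70) and EPHA5-AS1 (0.48). It was lower in SNU-449 for TMEM92-AS1 (-1.42), MRTFA-AS1 (-1.04) and SERTAD4-AS1 (-0.78).

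The TGFβ effect differed for 19. It was higher in SNU-449 for DSCAM-AS1 (1.30), MSRB3-AS1 (1.20), HHIP-AS1 (0.67) and UPK1A-AS1 (0.59). It was lower in SNU-449 for RNF157-AS1 (-1.55), TM4SF1-AS1 (-1.39), CCDC18-AS1 (-1.31), GPC6-AS1 (-1.24), SLC25A30-AS1 (-1.23), AQP5-AS1 (-1.19), SBF2-AS1 (-0.98), GATA3-AS1 (-0.94), MRTFA-AS1 (-0.86), PRKAG2-AS1 (-0.83), P3H2-AS1 (-0.79), SLC38A4-AS1 (-0.66), ANXA2R-AS1 (-0.63), EPHA5-AS1 (-0.52) and ERCC6L2-AS1 (-0.52).

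Some of these differences rest on levels at or near the floor and give no exact size. MRTFA-AS1 and TMEM92-AS1 were above background on 0 of 3 galunisertib arrays of SNU-449, and TMEM92-AS1 on 1 of 12 arrays of PLC/PRF/5. GPC6-AS1 was above background on 0 of 3 TGFβ arrays and 1 of 3 control arrays of SNU-449, and on 1 of 3 control arrays of PLC/PRF/5. P3H2-AS1 was above background on 1 of 3 arrays of both groups compared in PLC/PRF/5, and RNF157-AS1 on 2 of 3 control arrays there. MSRB3-AS1 was above background on 2 of 3 control arrays of SNU-449 and DSCAM-AS1 on 2 of 3 TGFβ arrays of PLC/PRF/5.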

How the results depend on the processing

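Of 373 named differences recomputed under the alternatives (5045 values), 3919 kept their call, 1118 kept their direction without passing and 8 turned. The most calls were lost with a replicate left out (139, 174 and 176 for replicates 1, 2 and 3), with array median scaling (168) and without scaling (162), then with the methods' t-test (102), normexp (81) and the authors' values (47). The 8 were SMAD5-AS1 in SNU-449 when galunisertib was added to TGFβ (0.068) and PTPRD for the difference of TGFβ effects (0.092) with normexp, B4GALT1 (-0.057) and RPL26L1 (-0.032) between the lines with array median scaling, and, in the authors' values, UPK1A-AS1 (-0.074) and FOXC2 (0.83) for the difference of galunisertib effects and GAS6 (-0.81) and PTPRD (1.62) for that of TGFβ effects. The cause was not tested.

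Counts of antisense probes called moved as follows. Between the lines, 313 became 169 with probes above background on all arrays, 177 at the study's limits (fold above 2, P below 0.001) and 287 to 290 with a replicate left out. For TGFβ in PLC/PRF/5, 40 became 25 with normexp, 7 with array median scaling, 11 without scaling (10 up and 1 down), 18 with the methods' t-test, 1 at the study's limits and 6 to 9 with a replicate left out. For galunisertib in PLC/PRF/5, 7 became 2 with normexp, 0 with array median scaling, 0 without scaling, 15 with the percentile over detected probes, 12 with probes above background on all arrays, 16 with 1 probe per gene, 1 with the t-test, 0 at the study's limits and 0 to 0 with a replicate left out, and the authors' values gave 3 up and 6 down. For galunisertib added to TGFβ in PLC/PRF/5, 123 became 70 with normexp, 59 with array median scaling, 19 without scaling, 10 at the study's limits and 54 to 68 with a replicate left out. For TGFβ in SNU-449, 26 became 10 with array median scaling, 14 without scaling, 4 at the study's limits and 6 to 9 with a replicate left out, and the authors' values gave 3 up and 21 down. For galunisertib in SNU-449, 14 became 4 with array median scaling (2 up and 2 down), 5 without scaling (2 up and 3 down), 26 with 1 probe per gene, 0 with the t-test, 3 at the study's limits and 0 to 2 with a replicate left out. In SNU-449, for galunisertib with TGFβ, 74 became 26 with array median scaling, 47 without scaling, 13 at the study's limits and 17 to 40 with a replicate left out. For the difference of galunisertib effects, 28 became 12 with normexp, 4 with array median scaling, 3 without scaling, 16 in the authors' values, 12 with probes above background on all arrays, 8 at the study's limits and 5 to 11 with a replicate left out. For the difference of TGFβ effects, 37 became 19 with normexp, 9 with array median scaling, 11 without scaling, 20 in the authors' values, 19 with probes above background on all arrays, 8 at the study's limits and 11 to 21 with a replicate left out. The methods' t-test gives no interaction. The ratio of antisense to sense signal differed in 133 of 169 pairs, in 30 of 39 with the second brightest sense probe, and in 120 to 127 with a replicate left out.

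With the replicate number as a block, the counts were 328, 33, 8, 125, 27, 12, 71, 28 and 34 in the same order, each within 1.5 times the value without it. Of the 373 named differences, 34 did not pass, among them those of CCDC18-AS1, MRTFA-AS1 and RNF157-AS1 for the difference of TGFβ effects. Same-numbered samples share only a number and a slide in the comparisons that did not meet the pairing check.

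Dim signal limits these results. The median level of the antisense RNAs was -1.70 to -1.14, against a floor of -4.13 at and below which levels cannot be ranked, and normexp adds an offset of 50 to each signal.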
